A study of Mus musculus with 3 samples.

Results

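Of the 162 genes of the mm10 RefSeq table that carry a small nucleolar or small nuclear RNA symbol (starting Snord, Snora, Rnu or Rn7s) or are one of the snoRNA host genes Snhg1, Snhg12 and Gas5, 21 held an AGO2 peak. These 21 genes are the 3 hosts and 18 small RNA genes, out of 159 small RNA genes in the table. They were chosen by the peaks themselves: a gene entered if the midpoint of a peak from any of 4 peak lists lay in its span, on either strand. That they hold peaks is therefore not a finding, and the text describes how many peaks they held, in which lists, how wide these were and where in the RNA they lay. The 3 hosts were named in the rule itself.

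AGO2 is the Argonaute protein that carries microRNAs to their targets. HITS-CLIP, in which a protein is crosslinked to RNA and pulled down and the attached RNA pieces are sequenced, was run on it in the embryonal carcinoma line P19, using antibody clone 2D4. Inserts of 20 to 50 nt were recovered, per the labels. The 3 libraries form 1 group, for which the labels give no genotype or treatment, with no input or control-antibody library among the samples analysed here. RNA bound by AGO2 and abundant RNA carried along with it therefore cannot be told apart. Each list holds the peaks of 1 caller, CIMS, Piranha, Pyicoclip or PIPE-CLIP, for the series as a whole. No list gives values per library, so the depth is unknown, no spread between libraries can be given and no test between groups was possible. Since the callers worked on the same reads, the 4 lists are not replicates of each other. Of the genes typical of P19 identity, Lin28a held 12 peaks in 4 lists, Lin28b 2 and Pou5f1 1, while Sox2, Nanog and Dppa5a held none, and a peak is not a measure of expression.

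Small nucleolar RNAs, or snoRNAs, guide chemical changes of ribosomal and spliceosomal RNA. Box C/D snoRNAs (Snord genes) direct methylation of the ribose, and box H/ACA snoRNAs (Snora genes) direct the conversion of uridine to pseudouridine. In mammals most of them lie in introns of host genes and are trimmed out of the spliced intron, and fragments of some are known to be loaded into Argonaute proteins. Small nuclear RNAs, or snRNAs, are the RNA cores of the spliceosome, and 7SK RNA, the product of Rn7sk, holds the transcription elongation factor P-TEFb in an inactive complex.

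The positions in the hosts are counted from their start sites, which are shown here to fix the point of origin. In these 4 lines, read from RefSeq sequence of GRCm38.p6 on the plus strand, lower case is the genome before the start and capitals mark the first 50 bases of the RNA. Gas5 has 2 start sites in the table.
Snhg1, chr19:8723437-8723536: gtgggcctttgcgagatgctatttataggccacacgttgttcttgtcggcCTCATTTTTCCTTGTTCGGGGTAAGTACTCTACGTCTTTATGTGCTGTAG
Snhg12, chr4:132308628-132308727: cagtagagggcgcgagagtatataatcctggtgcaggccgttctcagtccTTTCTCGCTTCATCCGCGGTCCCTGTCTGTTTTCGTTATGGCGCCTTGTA
Gas5, first start, chr1:161034551-161034650: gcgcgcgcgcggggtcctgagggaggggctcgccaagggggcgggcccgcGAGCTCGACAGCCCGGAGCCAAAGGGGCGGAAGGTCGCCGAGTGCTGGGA
Gas5, second start, chr1:161035116-161035215: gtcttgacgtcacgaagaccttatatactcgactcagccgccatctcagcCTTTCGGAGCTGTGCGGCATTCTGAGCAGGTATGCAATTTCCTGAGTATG

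Host RNAs of this kind are known to begin with a run of pyrimidines. Within 20 bases on each side of the start, the longest run of C and T was 9 bases in Snhg1 and in Snhg12, as long or longer in 10.7% of the 32851 start windows of the table. It was 6 bases at the second start of Gas5 (37.5% of windows) and 3 bases at its first start (93.7% of windows). Relative to the start, these runs began at 4 in Snhg1, -3 in Snhg12, -1 at the second Gas5 start and -5 at its first. The run of Snhg1 thus lay behind its first bases and not at the start itself. No peak overlapped these 4 printed windows. The nearest peak began 506 nt after the start in Snhg1, 1260 nt in Snhg12, and 675 nt after the second start of Gas5. Of the 21 genes, the 3 hosts were matched to the sequence table.

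By RNA class, 8 of 94 box C/D snoRNA genes, 3 of 39 box H/ACA snoRNA genes and 1 of 5 genes of the U3 snoRNA held a peak. Of the snRNA genes, 1 of 7 of the U1, U2, U5 and U6 type, both of the U11 and U12 type (2 of 2) and Rn7sk did. Of 8 small RNA pseudogenes, 2 did. The gene of U7, which acts in histone RNA processing, and the 2 genes of 7SL, the RNA of the signal recognition particle, held none. Over all 49997 genes of the table, 5.17% held a peak in any list, 2.3% in at least 2 lists and 0.066% in all 4. Of the 2583 genes of the table with a peak, 1150 were in at least 2 lists and 33 in all 4. Among the 21 genes, which all hold a peak, 14 were in at least 2 lists and 2 in all 4. These counts follow in part from the choice of genes with a peak, and nothing is read from them.

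The genes held 46 distinct peaks at 22 separate sites, with 1 interval in Rnu12 counted under both of its strand entries. Of these, 4 were in CIMS, 8 in Piranha, 18 in Pyicoclip and 16 in PIPE-CLIP. That was 2.37% of the CIMS list (95% Wilson interval 0.924 to 5.93), 0.565% of Piranha (0.286 to 1.11), 0.870% of Pyicoclip (0.551 to 1.37) and 0.491% of PIPE-CLIP (0.303 to 0.797). The intervals cover counting error only and treat peaks of 1 RNA as independent. MicroRNA genes held 1.18%, 2.68%, 2.66% and 0.246% of the lists in the same order.

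**Figure D1:**
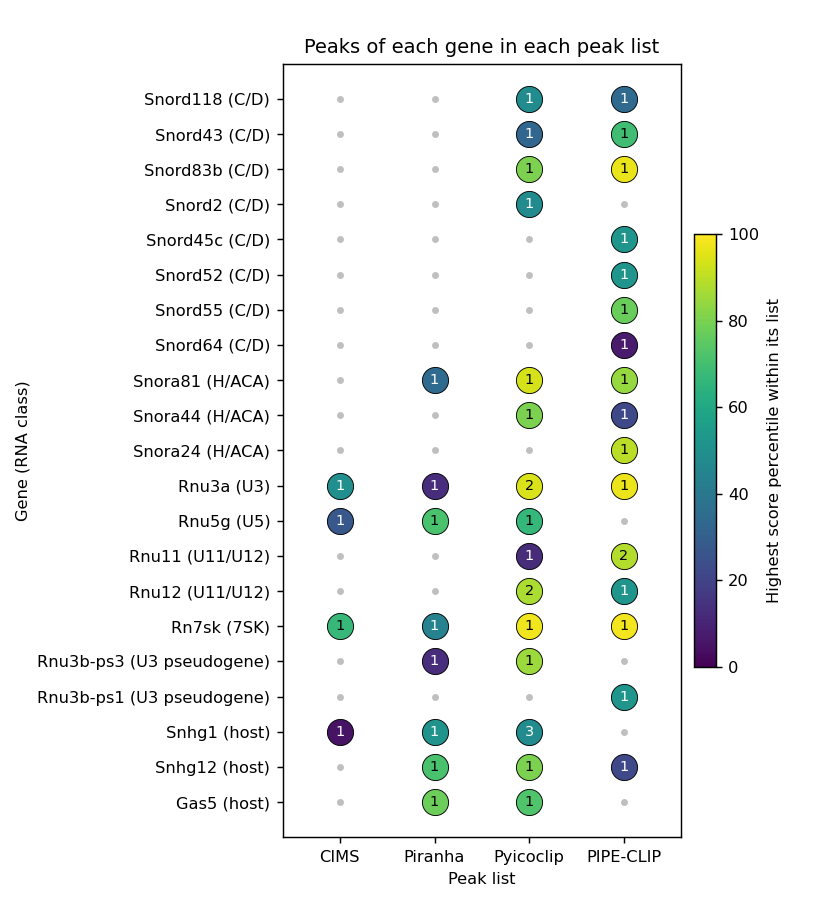
Each row is 1 of the 21 genes, with its RNA class in parentheses, and each column 1 peak list. Circles give the number of peaks and their colour the highest score percentile within that list, and grey dots mark no peak. Rn7sk and Rnu3a have peaks in all 4 lists, and the 8 genes with Snord symbols (C/D) have none in CIMS or Piranha.

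Genes of the box C/D, box H/ACA, U3, U11 and U12, and 7SK classes were in both Pyicoclip and PIPE-CLIP, in which 2.62% and 3.55% of all genes held a peak. The 8 box C/D genes were in Pyicoclip (4 genes) and PIPE-CLIP (7 genes). None of them was in CIMS or Piranha, in which 0.172% and 1.73% of all genes held a peak, so no difference between classes is read from this. Box H/ACA genes were in Piranha (1), Pyicoclip (2) and PIPE-CLIP (3). The 3 small RNA genes of the rule in CIMS were Rn7sk, Rnu3a and Rnu5g, none of which carries a Snord or Snora symbol. This is a matter of symbols and does not mean that snoRNAs were absent from CIMS and Piranha. Rnu3a, in both lists, encodes the snoRNA U3. The snoRNA gene LOC115489078 in Snhg1 held a CIMS peak, and LOC115487678 in Gas5 a Piranha peak. PIPE-CLIP alone gave 6 genes, Snord45c, Snord52, Snord55, Snord64, Snora24 and Rnu3b-ps1, and Pyicoclip alone gave Snord2. All 4 CIMS and all 8 Piranha peaks shared 1 nt or more with a Pyicoclip peak of the same strand. Of the 18 Pyicoclip peaks, 16 overlapped another list, as did 10 of the 16 PIPE-CLIP clusters. The same overlaps over the whole lists are not given here and the callers share their reads. No trait of these genes is therefore read from the overlaps.

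Rn7sk, on chromosome 9 from 78175302 to 78175633, is 332 nt long and held 1 peak in each list, all on the minus strand. The peak scores, which are the authors' own values and comparable only within a list, were 49 in CIMS, 11.3 in Piranha, 53 in Pyicoclip and 56 in PIPE-CLIP. In Pyicoclip and PIPE-CLIP these lay at percentiles 97.8 and 98.3 of the list, the highest among the 21 genes, against 67.2 in CIMS and 43.8 in Piranha. Read along the peak strand, the CIMS peak covered bases 226 to 266, the Piranha peak 234 to 293, the Pyicoclip peak 177 to 335 and the PIPE-CLIP cluster 191 to 333. All 4 thus lay in the part of 7SK towards its 3′ end, and the 2 wide ones ended 3 nt and 1 nt past the annotated end. No peak of any list covered the RNA before base 177.

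Rnu3a encodes U3, the box C/D snoRNA needed to cut the precursor of 18S ribosomal RNA. Its span on chromosome 10, from 40258468 to 40258679, is 212 nt long and held 5 plus-strand peaks. The scores were 26 in CIMS, 10 in Piranha, 30 and 17 in Pyicoclip and 44 in PIPE-CLIP. CIMS covered bases 48 to 88 and Piranha bases 14 to 33, with a gap of 14 nt between them. Those 2 callers therefore marked different stretches of U3, joined only by the wide peaks of Pyicoclip (bases 19 to 215) and PIPE-CLIP (bases 20 to 216). A second, nested Pyicoclip peak began at base 121. The U3 genes Rnu3b1, Rnu3b2, Rnu3b3 and Rnu3b4 held none, but genes of U3 are near-identical copies and the copy of origin is uncertain. The same holds for Rnu5g and Rn7sk, which have copies elsewhere in the genome.

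The pseudogenes Rnu3b-ps3 and Rnu3b-ps1 are remnants of U3 genes. Rnu3b-ps3 held a Piranha peak of score 10 and a Pyicoclip peak of score 19, which overlapped at bases 186 to 191 of its 413 nt. Both were on the minus strand, opposite to Slc24a4, the protein-coding gene on the plus strand in which it lies. The same 2 peaks fall in the snoRNA gene Gm25203, which lies inside the pseudogene span. Rnu3b-ps1 held a PIPE-CLIP cluster of score 14 over bases 155 to 215, the last 61 bases of the gene.

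Rnu5g encodes a U5 snRNA, which sits at the centre of the spliceosome and holds the exon ends. Its 116 nt on chromosome 9, from 65201726 to 65201841, held minus-strand peaks of score 14 in each of CIMS, Piranha and Pyicoclip and none in PIPE-CLIP. CIMS covered bases 74 to 114, Piranha bases 102 to 121 and Pyicoclip bases 25 to 118. The CIMS and Piranha peaks overlapped by 13 nt near the 3′ end. Other snRNA genes of 116 nt did hold PIPE-CLIP clusters, with scores of 16 in Gm22265, 19 in Gm25099, 14 in LOC115487699 and 12 in Gm25313. Gm23143 and Gm23287, of the same length, were in Pyicoclip alone. The lack of a cluster thus holds for Rnu5g as annotated, and the copy of origin is uncertain. The other genes of the major spliceosome that carry such symbols, among them Rnu2-10 and Rnu6, held no peak. This does not show that their RNAs were unmarked, since snRNA genes under other symbols held peaks. Of 54 snRNA genes of 164 to 166 nt, the lengths of Rnu1a1, Rnu1b1 and Rnu1b6, 5 did, as did 3 of 15 of 191 nt. Of 385 genes of 107 nt, the length of Rnu6, 0 did.

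Rnu11 and Rnu12 encode the U11 and U12 snRNAs, which recognise the rare introns of the minor spliceosome. Neither was in CIMS or Piranha. Older names of Rnu11 in the table include mir-801, a microRNA name. Rnu11, 108 nt on chromosome 4 from 132270079 to 132270186, held a Pyicoclip peak of score 10 and 2 PIPE-CLIP clusters of scores 25 and 13, all on the minus strand. The Pyicoclip peak ran from 26 nt before the 5′ end to 2 nt past the 3′ end and so covered the whole RNA. PIPE-CLIP broke it into a cluster from 22 nt before the 5′ end to base 41 and another over bases 45 to 108, 3 nt apart. Rnu12, 150 nt on chromosome 15 from 83149645 to 83149794, held a Pyicoclip peak of score 20 over bases 8 to 158, listed with a plus strand and again without a strand. Its PIPE-CLIP cluster, of score 14, covered bases 9 to 114.

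**Figure D2:**
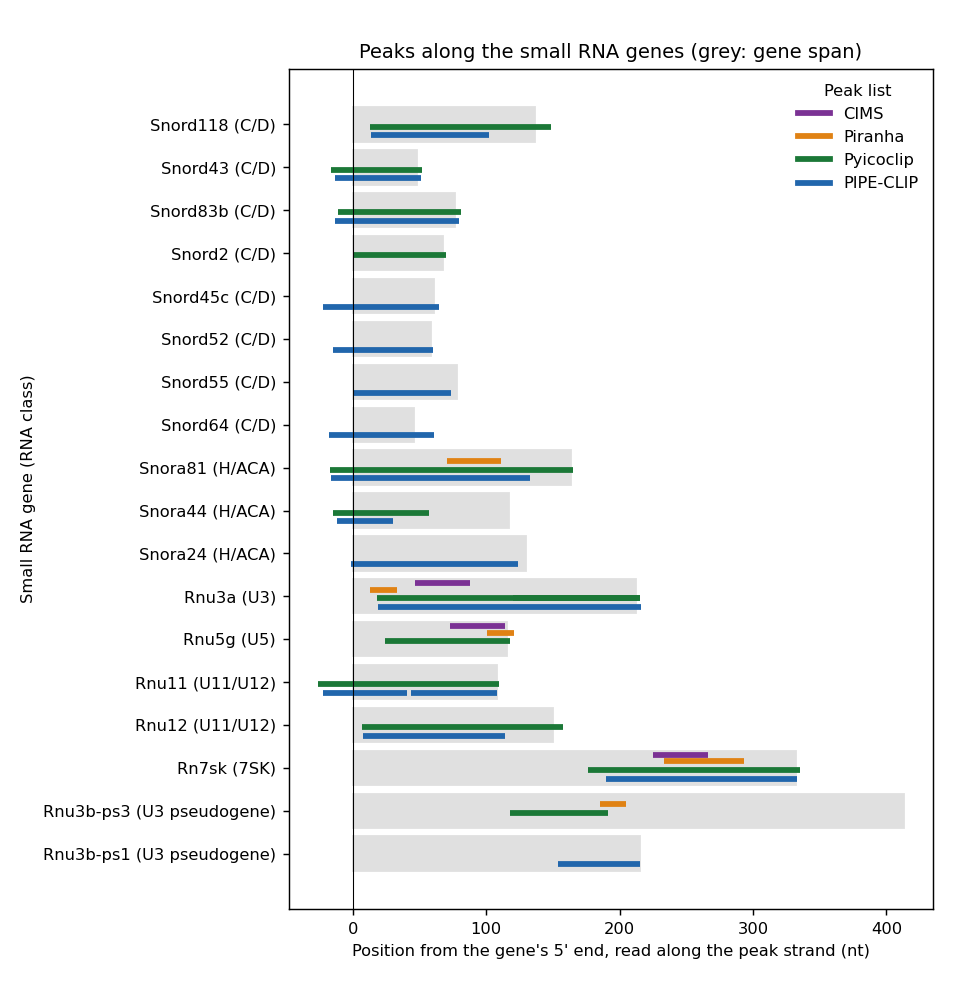
Each row is 1 of the 18 small RNA genes, drawn to scale from its 5′ end as a grey bar, with coloured lines for the peaks of each list. The horizontal axis is in nt and is read along the peak strand, and negative values lie before the gene. The nested Pyicoclip peak of Rnu3a is hidden by the wider one. Peaks of Pyicoclip and PIPE-CLIP cover most of the box C/D genes, and those of Rn7sk lie in its 3′ part.

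Among the box C/D snoRNAs, Snord83b and Snord43 lie in the gene of the ribosomal protein Rpl3 on chromosome 15. Snord83b, 77 nt from 80078503 to 80078579, scored 17 in Pyicoclip and 41 in PIPE-CLIP, at percentiles 80.5 and 96.5. Among the Snord genes the next in PIPE-CLIP was Snord55 at percentile 77.1. Snord43, 48 nt from 80082859 to 80082906, scored 11 and 17, at percentiles 32.7 and 69.4. In both genes the 2 lists nearly coincided, from 11 or 13 nt before the 5′ end of Snord83b and 16 or 13 nt before that of Snord43 to 3 or 4 nt past the 3′ end. The 4 peaks of the Rpl3 span were these, and none lay elsewhere in the host.

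Snord118 encodes U8, which is needed to mature the large-subunit ribosomal RNAs. It lies in no other gene of the table. On chromosome 11, from 69073426 to 69073562, it scored 12 in Pyicoclip and 12 in PIPE-CLIP. The peaks covered bases 14 to 149 and 15 to 102 of its 137 nt. Both began at nearly the same base, inside the RNA, and the Pyicoclip peak ran 12 nt past its 3′ end.

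The other 5 box C/D genes were in 1 list each. Snord2, in the translation factor gene Eif4a2 on chromosome 16, had a Pyicoclip peak of score 12 over bases 2 to 70 of its 68 nt. In PIPE-CLIP, Snord55 scored 19 and was covered from base 1 to 74 of 78. Snord45c in Rabggtb and Snord52 in the non-coding host 1110038B12Rik scored 14 each. Their clusters began 22 nt and 15 nt before the 5′ end and ended 4 nt and 1 nt past the 3′ end. Snord64, in the imprinted region of Snhg14, scored 10, the lowest score in the list, with a cluster from 18 nt before to 15 nt past its 46 nt. It was the only one of the 21 genes whose peaks all lay below the median score of their list.

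The box H/ACA genes were marked along different parts of the RNA. Snora81, 164 nt in Eif4a2 from 23110770 to 23110933, scored 11 in Piranha, 27 in Pyicoclip and 22 in PIPE-CLIP. Pyicoclip ran from 17 nt before its 5′ end to 1 nt past its 3′ end, PIPE-CLIP stopped at base 133, and Piranha marked bases 72 to 111 in the middle. Snora44, 117 nt in Snhg12, was marked at its 5′ end alone, by a Pyicoclip peak from 15 nt before the gene to base 57 and a PIPE-CLIP cluster from 12 nt before the gene to base 30. Snora24, 130 nt in the host Snhg8, was in PIPE-CLIP alone, with a score of 26 and a cluster that reached base 124.

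Peaks in these genes were wide. All 18 Pyicoclip peaks were over 60 nt and so longer than the recovered inserts, with a median of 93 nt and a range of 66 to 197 nt, whereas 37.6% of all Pyicoclip peaks were over 60 nt and their median was 29 nt. Of the 55 Pyicoclip peaks in microRNA genes, 4 were over 60 nt, and their median was also 29 nt. None of the 18 was at most 30 nt wide, against 37 of those 55. Such widths also occurred in small RNA genes outside the rule. There the highest-scoring Pyicoclip peak was 111 nt in Rny1, 211 nt in Rpph1, 106 nt in Rmrp and 180 nt in Gm25939. It was 60 nt or less in Gm23656 (35 nt), Gm22423 (39 nt), Gm23405 (46 nt), Gm25587 (49 nt), Gm24949 (57 nt) and Gm24763 (60 nt). In PIPE-CLIP the widths were nearer to the rest, with a median of 83 nt against 85 nt for the list and 71 nt for 8 clusters in microRNA genes. Piranha peaks here were 20 nt in 6 of 8 cases, the median of that list, with 40 nt at Snora81 and 60 nt at Rn7sk. CIMS intervals were 41 nt throughout, so their width holds no information. Width was not used to choose the genes, but peaks of 1 gene overlap and the lists share their reads, so no test was made.

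**Figure D3:**
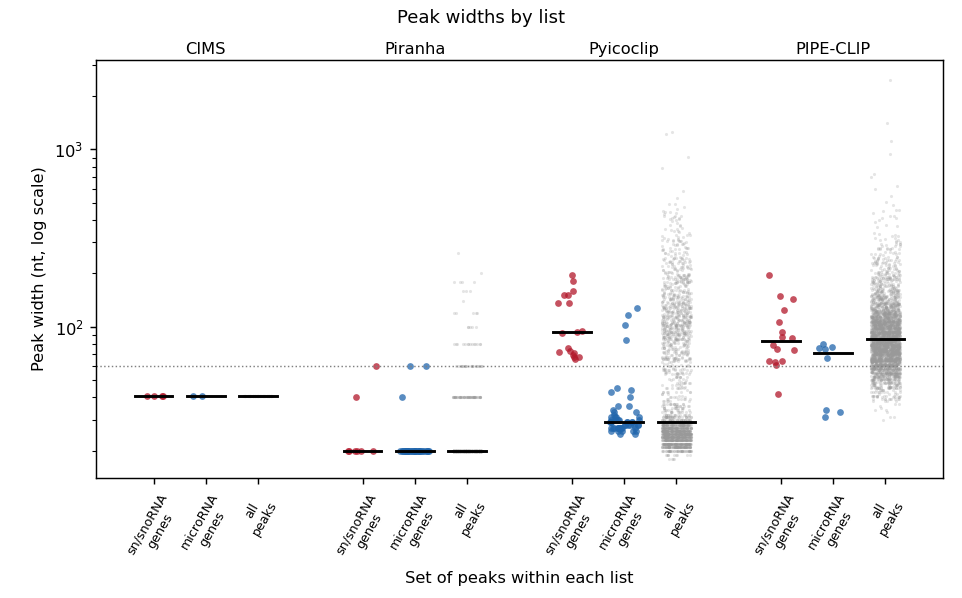
Peak width in nt, on a log scale, for the small RNA and host genes (red), microRNA genes (blue) and all peaks (grey) of each list. Points are peaks, black bars are medians and the dotted line is at 60 nt. All red Pyicoclip points lie above 60 nt, while most blue ones lie near 29 nt.

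The wide peaks covered most of the RNA. In Pyicoclip they covered a median of 93.4% of the gene over 12 small RNA genes, from 17.7% in Rnu3b-ps3 to 100% in Rnu11, Snord43, Snord83b and Snora81. In PIPE-CLIP the median was 94.9% over 15 genes, the lowest being 25.6% in Snora44. Coverage was 90% or more in 8 and 9 of these genes. Of 37 stranded peaks in small RNA genes, 11 were at least as wide as the gene, and 13 lay wholly inside it. A peak reached past the 3′ end in 19 cases, by at most 15 nt, and past the 5′ end in 14 cases, by at most 26 nt. The reach past the 5′ end differed by strand. In Pyicoclip and PIPE-CLIP its median was 11 nt for 17 minus-strand peaks and 0 nt for 12 plus-strand peaks. At the 3′ end the medians were 2 nt and 1.5 nt. The 2 strands hold different genes, some with several peaks, so strand and RNA class cannot be told apart here. By class, over all lists, the median reach past the 5′ end was 13 nt in box C/D and 13.5 nt in box H/ACA genes. It was 0 nt in U3, in U11 and U12, and in 7SK. Why the strands differed was not tested. All 11 box C/D peaks had their middle in the central part of the RNA, between 35.3% and 59.1% of its length. Gene ends were taken as annotated, and the strand of a small RNA gene was taken from its peaks.

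Overlapping peaks of Pyicoclip and PIPE-CLIP often began 1 nt apart. In 6 of the 11 same-strand pairs at these genes the PIPE-CLIP start was exactly 1 nt after the Pyicoclip start, as it was in 27.9% of 630 overlapping pairs over both whole lists. The PIPE-CLIP end was earlier in 8 of the 11 pairs, with a median difference of -14 nt. Whether both callers count positions from the same base was not tested.

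Where the strand of the intron's host was known, peaks of genes with Snord and Snora symbols matched it. Those in the snoRNA gene Gm25203, inside Rnu3b-ps3, did not, as they lay opposite to Slc24a4. Snord2, Snora81 and Snora44 on the plus strand and Snord45c, Snord52, Snord64 and Snora24 on the minus strand all had peaks on the strand of the host. These minus-strand Snord and Snora genes were in PIPE-CLIP alone. Of all clusters in that list, 2835 were on the minus strand and 422 on the plus strand, so a minus-strand match there says little. For Rpl3 no strand was used. In Eif4a2, 4 of 5 peaks lay in snoRNA genes and 1 elsewhere, in Rabggtb 1 of 6, in Snhg8 1 of 2, and in the long Snhg14 span 1 of 4.

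Snhg1, Snhg12 and Gas5 are non-coding RNAs best known as carriers of snoRNAs in their introns. Together they held 10 peaks in 9126 nt, of which 17.1% belongs to 20 nested snoRNA genes. By midpoint 8 of the 10 peaks lay in a nested gene, and all 10 overlapped one. The 2 exceptions by midpoint were Piranha peaks whose middle lay 0.5 nt before the nested gene in Snhg1 and 2.5 nt before Snora44 in Snhg12. The peaks fell on 5 of the 20 nested genes, and the other 15 held none.

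In Snhg1, on chromosome 19 from 8723487 to 8726326, 3 of 8 nested snoRNA genes were marked. The first, LOC115489078, held a Pyicoclip peak of score 11 over bases 1 to 71 of its 72 nt and the CIMS peak of score 10. The second, LOC115489084, was covered by a Pyicoclip peak of score 12 to base 74 of 75, with a Piranha peak of score 12 at its 5′ end. The fifth, LOC115489081, held a Pyicoclip peak of score 10 to base 64 of 65. Snord22, the last of the 8 and the longest at 126 nt, held none. Every peak in the span of Snhg1 overlapped one of these 3 genes, and PIPE-CLIP had no cluster in the host.

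In Snhg12, on chromosome 4 from 132308678 to 132311024, all 3 peaks were at Snora44, the second of 4 nested genes. The scores were 14 in Piranha, 17 in Pyicoclip and 11 in PIPE-CLIP, and the Piranha peak overlapped the first 8 bases of Snora44. Snora16a, Snora61 and Snord99 held none. In Gas5, on chromosome 1 from 161034601 to 161038539, both peaks were at LOC115487678, the second of 8 nested genes. The Piranha and Pyicoclip peaks scored 15 each. Pyicoclip covered all 62 bases, and Piranha marked 11 nt at the 5′ end. Snord47 and the 6 other nested genes held none. In each of the 3 hosts Piranha thus marked the 5′ end of a nested snoRNA, with an overlap of 10, 8 and 11 nt. The starts of all 1417 Piranha peaks lie on a 20 nt grid, so their edges are no finer than this.

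**Figure D4:**
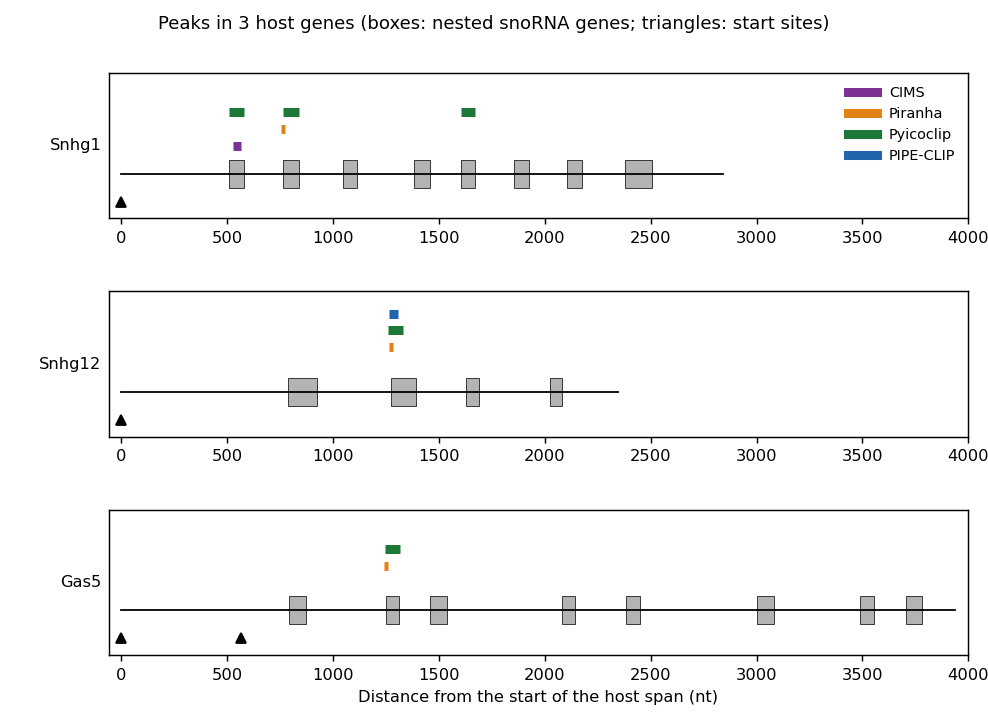
Each panel is 1 host, with distance in nt from the start of its span on the horizontal axis. Grey boxes are nested snoRNA genes, triangles are start sites and coloured bars are peaks of each list. All 10 peaks sit at or against a box, and 15 of 20 boxes hold none.

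Of the 19 genes with a symbol starting Snhg, Gas5 included, 6 held a peak, or 31.6%, against 5.17% of all genes, and 5 of them held one in a nested small RNA gene. These 5 are not independent of the choice of genes: they are the 3 hosts of the rule and Snhg8 and Snhg14, which contain Snora24 and Snord64. Snhg10 was the exception, with a PIPE-CLIP cluster in Scarna13, a small Cajal body RNA counted here as another RNA type. Snhg3, Snhg5, Snhg6 and Snhg7 held none.

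Peaks in genes of the proteins that work with these RNAs were mostly single and in 1 list. Of 50 such genes, 10 (20.0%) held a peak, against 9.77% of protein-coding genes. Of the 10, only Larp7 was in more than 1 list, against 873 of the 2140 protein-coding genes with a peak. Larp7 is counted here only through peaks in microRNA genes on the opposite strand. Shq1, Snrpb, Snrpe, Snrnp70, Eftud2, Mepce, Ccnt1 and Lsm11 held only minus-strand PIPE-CLIP clusters. That list has 2835 clusters on the minus strand and 422 on the plus strand, so nothing is read from the 20.0%. None of the 5 box C/D core protein genes, of 7 assembly factor genes and of 6 signal recognition particle genes held one, and of 6 box H/ACA genes only Shq1 did. Of 15 spliceosomal protein genes 5 did, among them Eftud2, a partner of U5, with a PIPE-CLIP score of 19 and Prpf8 with a Pyicoclip score of 10. Of the 7 genes of the 7SK complex and P-TEFb, Larp7, Mepce and Ccnt1 did. Ccnt1, the gene of cyclin T1, held 4 PIPE-CLIP clusters, the highest scoring 20. The 7 peaks in the span of Larp7, the gene of a protein that binds 7SK, lay in Mir302a, Mir302b and Mir302d and on the opposite strand, so none belongs to the Larp7 RNA. Lsm11, of the U7 particle, held 1 cluster of score 11.

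Scores of the small RNA and host genes ranged widely within each list. The median percentile was 38.3 in CIMS, 47.5 in Piranha, 76.4 in Pyicoclip and 60.7 in PIPE-CLIP. Of the 46 peaks, 6 had the lowest score of 10 and 16 had at most 12, and peaks below 10 were not analysed here. The genes nearest to the limit of the midpoint rule were Rnu5g, with a Piranha peak whose middle was 4.5 nt inside the gene, and Snora44, with a PIPE-CLIP cluster 8.5 nt inside it. The nearest outside was the Piranha peak 2.5 nt before Snora44.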

How the data were processed

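The members, classes and gene groups were chosen with earlier results of these data known. After release from the membrane, RNA went into a small RNA library kit, per the labels' protocols. The submitters' processing notes name cutadapt, Novoalign and build mm10. For the callers, their settings and the pooling of the 3 libraries, details were not given in the sources used here. The authors deposited each peak with a start, an end and a score of no stated unit, the lowest being 10. Starts of all lists were read as 0-based and are given 1-based here.

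A peak was assigned to each gene of the RefSeq table (GRCm38.p6) whose span held its midpoint. Strands of hosts came from the RefSeq start-site table. Score percentiles are average ranks within a list. Wilson intervals are at 95% and no test was run, since the genes were chosen by their peaks. Named were all genes in at least 2 lists, genes holding a list's 3 highest-scoring peaks among members, the hosts with their nested genes, and the widest and narrowest peak of each class. Other genes were named to account for each member. On simulated data over 159 genes, 60 of 60 planted midpoints were recovered and 0 decoys were assigned. The midpoints were planted inside gene spans and the decoys outside, so this checks only that the assignment was carried out as stated. Alternatives covered the assignment rule, score, lists, merging and overlap. Python 3.11.15, numpy 2.4.6, pandas 2.3.3, scipy 1.17.1 and matplotlib 3.10.9 were used. The host of 1 snoRNA gene is not reported here.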

Additional observations from a re-analysis of the deposited data

How the results depend on the processing

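Each list covers all libraries, so no library could be left out, and no paired analysis was possible because the 3 libraries form 1 group. The rule that a peak must lie on the strand of its gene was not run, since no strand of the small RNA genes was used here. If the whole peak had to lie in the gene span, the count of genes fell from 21 to 13, of genes in at least 2 lists from 14 to 6, of genes in all 4 lists from 2 to 0 and of peaks from 46 to 23, and the share was 0.290% in Pyicoclip and 0.184% in PIPE-CLIP. By construction this drops each peak that passes an end of the gene, even by 1 nt. With scores at or above the list median, 9 genes were in at least 2 lists and 0 in all 4, and the share of CIMS was 1.18% in place of 2.37%. Genes in at least 2 lists numbered 6 without Pyicoclip and 8 without PIPE-CLIP. Without PIPE-CLIP 15 genes held a peak, and Snord45c, Snord52, Snord55, Snord64, Snora24 and Rnu3b-ps1 were lost. By midpoint, 5 peaks lay in the first part of the gene, 23 in the central and 9 in the last when it was cut in 3 equal parts. By the first base of the peak these were 26, 7 and 4, and by the last base 2, 5 and 30, as peaks that span a gene must give. The median widths in each list, the overlap between lists and the count in nested genes moved by less than 1.5 times. Depth is unknown, so genes with no peak may fall below the score limit.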

Other observations

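Small RNA genes under other symbols held peaks as well. Among 987 other snRNA genes, 18 held a peak (1.82%), 14 of them in at least 2 lists, and of 1208 other snoRNA genes 10 did (0.828%), 5 of them in at least 2 lists. Both shares are below the 5.17% of all genes, but the sets differ in gene length, and a longer span can hold more midpoints. The median lengths were 107 nt for these snRNA genes and 131 nt for these snoRNA genes. Of microRNA genes, with a median of 81 nt, 4.41% held a peak. Of 16 further small RNA genes, with a median of 121 nt, 25.0% did, as did 11.3% of the 159 small RNA genes of the rule. These 10 include Gm25203 and the 4 LOC genes in Snhg1 and Gas5. Gm22973, an snRNA gene of 191 nt on chromosome 12, was in all 4 lists, with scores of 12 in CIMS, 10 in Piranha, 12 in Pyicoclip and 13 in PIPE-CLIP. Gm25939, of the same length, scored 30 in CIMS, 32 in Pyicoclip and 21 in PIPE-CLIP. Rmrp, the RNA of the RNase MRP particle, held the highest-scoring PIPE-CLIP cluster among the other small RNAs, with a score of 109 and a width of 277 nt over a gene of 275 nt. Rpph1, the RNA of RNase P, held 7 peaks in 3 lists, and Rny1, a Y RNA, held 1 in each of CIMS, Pyicoclip and PIPE-CLIP, with scores of 27, 35 and 46. Terc, Rny3 and Vaultrc5 held none.

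The share of snRNA genes with a peak differed between the gene lengths compared. Of 385 snRNA genes of 107 nt, the length of Rnu6, 0 held a peak, and a count of 0 leaves room for 0.779% (3 counts). Of 9 genes of 116 nt, the length of Rnu5g, 7 did (77.8%, 95% Wilson interval 45.3 to 93.7), and of 54 genes of 164 to 166 nt, the lengths of Rnu1a1, Rnu1b1 and Rnu1b6, 5 did (9.26%). Of 15 genes of 191 nt, 3 did. These lengths were compared after the peaks were seen. Those of 116 and 191 nt are the lengths of Rnu5g and Gm22973, which hold peaks and are counted in the shares. The shares and the interval at these lengths therefore follow in part from that choice. Genes of 1 length can be near-identical copies that share reads, so the 7 genes of 116 nt are not 7 independent cases.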
